A study of Homo sapiens with 6 samples.

Results

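The genes described here move cholesterol out of cells or are switched on by the liver X receptors (LXRs). They are ABCA1, ABCG1, SCARB1, NR1H3, NR1H2, MYLIP, LPCAT3, APOE, APOC1 and PLTP, chosen by name with earlier results of these data known. Of the 10, 9 were among the 18404 genes measured. Each of these 9 had a single probeset (a set of array probes summarised to 1 value). NR1H2 has no probeset under its own symbol in the annotation used here and was not analysed. RNA came from PC-3, an established androgen-independent prostate carcinoma line kept in DMEM with 10% fetal bovine serum, on 3 arrays from cells given menthol dissolved in ethanol and 3 arrays from cells given ethanol alone. Ethanol was at 0.1% in both groups, and neither the dose of menthol nor the length of treatment is stated in the sources used. PC-3 is 1 cell line, so the arrays speak for that line.

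LXRs are nuclear receptors that pair with retinoid X receptors (RXRs) on DNA and are activated by oxysterols, the oxidised forms of cholesterol. When sterol accumulates, they raise the genes of exporters that load cholesterol onto apolipoprotein particles, and of MYLIP, a ubiquitin ligase that marks lipoprotein receptors for destruction. A second system that responds to sterol, SREBP, raises sterol synthesis and uptake when sterol runs short. The study asked how menthol alters the expression profile of these cells.

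With menthol, 5 of the 9 measured genes passed the threshold given below as lower, and none of the 9 passed as higher. The phospholipid transfer protein gene PLTP and the cholesterol exporter gene ABCA1 were at 46.2% and 48.5% of their vehicle level, and ABCG1, MYLIP and SCARB1 at 69.9%, 70.8% and 74.0%. In RNA from whole cultures, fewer cells with a transcript and less of it per cell cannot be told apart. LPCAT3, NR1H3, APOE and APOC1 did not pass the threshold, an adjusted p of 0.05 in limma. Over all 18404 genes 14.5% passed as lower, 14.6% as higher and 29.1% in either direction. The median log2 fold change, menthol minus vehicle, was -0.43 over the 9 genes and 0.03 over all genes. Because the genes were chosen with earlier results of these data known, these differences from all genes are descriptive only. The count of 0 higher members was also 0 at an unadjusted p under 0.05.

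**Figure D1:**
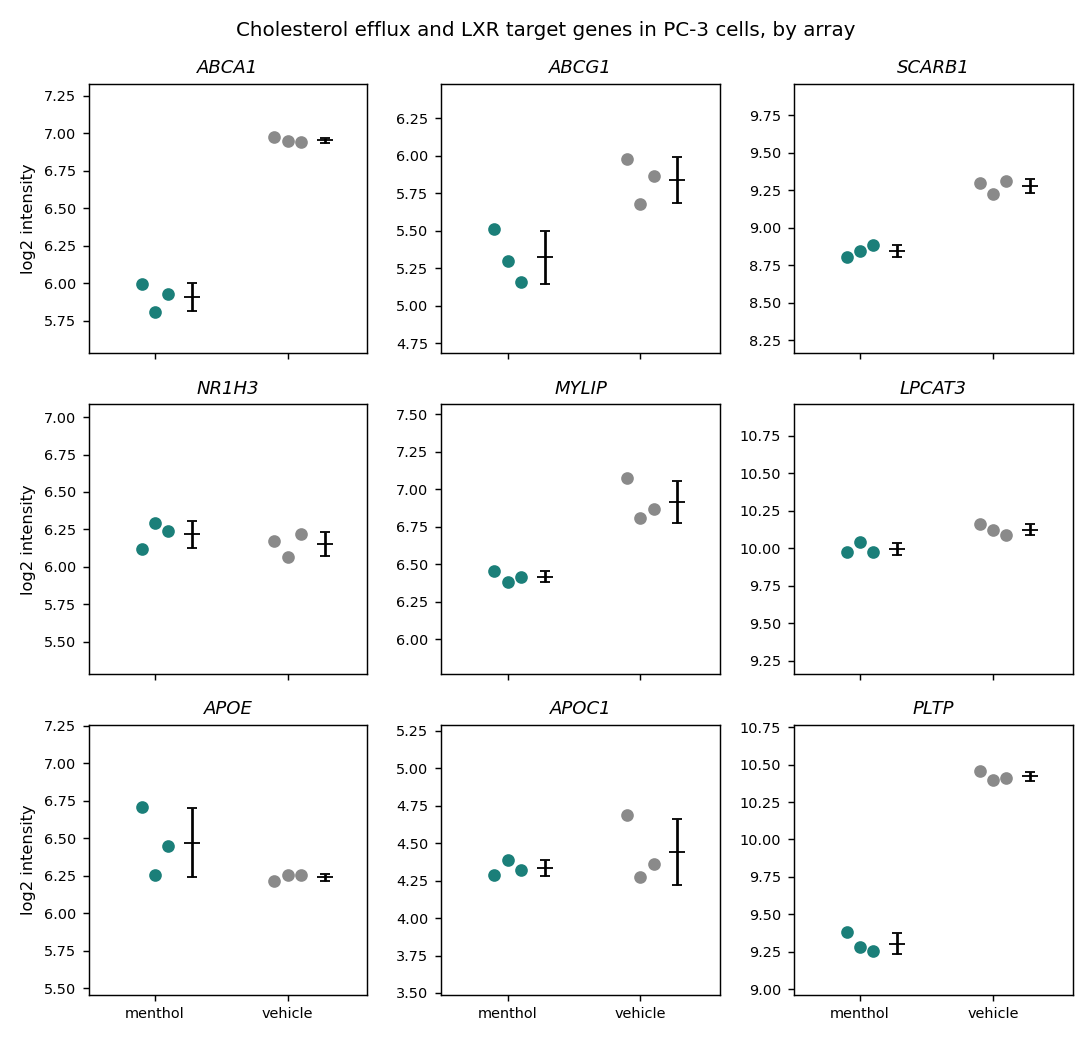
Log2 intensity (y axis, of equal height in every panel) of the 9 measured genes on the menthol and vehicle arrays; points are arrays, and the black mark beside them is the mean ± SD (n = 3). The menthol points of ABCA1 and PLTP lie about 1 log2 unit below the vehicle points, while those of NR1H3 and APOC1 are mixed with them.

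ABCA1 encodes the transporter that hands cholesterol and phospholipid to lipid-poor apolipoprotein A-I, the first step in forming high-density lipoprotein. Its intensity was 63.7, 56.1 and 60.8 on the menthol arrays, against 125.6, 123.5 and 122.7 on the vehicle arrays. The groups lay far apart, and the vehicle arrays were close to each other, with an SD of 0.02 on the log2 scale against 0.09 with menthol. ABCA1 fell by 1.04 ± 0.07 on the log2 scale (moderated SE, n = 3 per group; adjusted p = 7.51e-05), to 48.5% of the vehicle level (95% interval 43.5% to 54.1%). Its log2 fold change was the 80th lowest of all genes.

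PLTP encodes a secreted protein that moves phospholipids between lipoproteins and is itself a known LXR target. Its intensity was 667.4, 622.0 and 610.8 on the menthol arrays, against 1403, 1347 and 1364 on the vehicle arrays. It fell by 1.11 ± 0.06 on the log2 scale (adjusted p = 4.78e-05), to 46.2% of the vehicle level (95% interval 41.7% to 51.1%). The lowest vehicle array stood 1.01 log2 units above the highest menthol array, and the corresponding gap for ABCA1 was 0.95. A decrease of at least 2-fold that also passed the threshold was seen in 96 genes, or 0.522% of those tested, among them both PLTP and ABCA1.

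The promoters of these genes with the largest decreases are shown, because ABCA1 carries a well-known LXR site just upstream of its start. The sequences are the 250 bases before each annotated start, from RefSeq on GRCh38.p14, read 5′ to 3′ on the gene's own strand. Capitals mark a DR4 match, the repeat that LXR and RXR bind, and an E-box, a site for basic helix-loop-helix factors. ABCA1 lies at chr9:104928156-104928405 on the minus strand, and the 2 starts listed for PLTP lie at chr20:45910995-45911244 and chr20:45912156-45912405, also on the minus strand.
ABCA1: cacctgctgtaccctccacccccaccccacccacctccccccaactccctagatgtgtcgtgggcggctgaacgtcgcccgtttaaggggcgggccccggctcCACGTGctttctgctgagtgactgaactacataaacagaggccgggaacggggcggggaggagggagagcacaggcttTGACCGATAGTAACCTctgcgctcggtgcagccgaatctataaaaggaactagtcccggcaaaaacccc
PLTP start at the lower coordinates: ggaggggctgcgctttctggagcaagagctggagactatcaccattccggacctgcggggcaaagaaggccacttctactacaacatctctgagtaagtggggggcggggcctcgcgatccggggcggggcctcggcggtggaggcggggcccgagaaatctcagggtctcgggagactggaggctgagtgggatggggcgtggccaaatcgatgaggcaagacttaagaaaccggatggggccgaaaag
PLTP start at the higher coordinates: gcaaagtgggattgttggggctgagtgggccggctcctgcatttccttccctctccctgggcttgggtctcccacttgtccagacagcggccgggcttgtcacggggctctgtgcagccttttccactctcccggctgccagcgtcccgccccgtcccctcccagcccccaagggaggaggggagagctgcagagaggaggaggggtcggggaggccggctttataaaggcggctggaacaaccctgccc

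The DR4 search used AGGTCA followed by NNNN and by AGGTCA again, on both strands, and allowed up to 2 mismatches in the 12 named letters. The E-box search used CACGTG, which reads the same on both strands, and no match of one motif overlapped a match of the other. The ABCA1 window held 1 DR4 match, on the opposite strand, with 2 mismatches. That match runs from the 69th to the 54th base before the start, and in the orientation of the motif reads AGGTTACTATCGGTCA. It also held 1 E-box, beginning 147 bases before the start. Of all 35116 windows of this length, 2.03% held a DR4 match at this allowance and 6.34% an E-box.

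Of the 10 genes, 8 had an entry in the promoter table, with 14 starts between them, and ABCG1 and SCARB1 had none. The ABCA1 start was the only one of the 14 with a DR4 match and the only one with an E-box. Neither PLTP window held either motif, nor did the windows of MYLIP, LPCAT3, NR1H3, NR1H2, APOE and APOC1. Such a match is a string of letters in a short window, and LXR sites of several genes are known to lie farther from the start than the window reaches.

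ABCG1 encodes a transporter that works as a dimer and passes cholesterol to mature high-density lipoprotein. Its intensity was 45.6, 39.4 and 35.7 on the menthol arrays, against 63.1, 51.1 and 58.3 on the vehicle arrays. The groups did not overlap, although each spread over a wider range than for ABCA1, with SDs of 0.18 (menthol) and 0.15 (vehicle) on the log2 scale. ABCG1 fell by 0.52 ± 0.11 (adjusted p = 0.0115), to 69.9% of the vehicle level (95% interval 58.4% to 83.6%). It was the least certain of the 5 decreases and did not pass a threshold of 0.01. The intervals of the log2 fold change, -1.20 to -0.89 for ABCA1 and -0.78 to -0.26 for ABCG1, did not meet, but the difference between these exporters was not tested.

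SCARB1 encodes SR-BI, the receptor that takes cholesteryl ester from high-density lipoprotein and lets free cholesterol pass in both directions across the membrane. Its intensity was 446.6, 460.0 and 472.6 on the menthol arrays, against 628.6, 599.4 and 635.7 on the vehicle arrays. Both groups were tight and stood apart by more than the range of either. SCARB1 fell by 0.43 ± 0.06 on the log2 scale (adjusted p = 0.00175), to 74.0% of the vehicle level. SCARB1 is the member of the efflux genes that also brings sterol into cells.

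NR1H3 encodes LXR-alpha, the receptor itself. Its intensity was 69.6, 78.3 and 75.5 on the menthol arrays, against 72.2, 66.9 and 74.6 on the vehicle arrays. The groups overlapped, with the lowest menthol array below 2 of the vehicle arrays. The log2 fold change was 0.06 ± 0.07 (adjusted p = 0.56), and its 95% interval ran from -0.11 to 0.23, which leaves out a change as large as that of the 5 genes that fell. The level of mRNA says nothing about the activity of a receptor that responds to a ligand.

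MYLIP, also called IDOL, encodes the ubiquitin ligase through which LXRs limit lipoprotein uptake. Its intensity was 87.8, 83.4 and 85.4 on the menthol arrays, against 134.7, 111.9 and 116.8 on the vehicle arrays. The menthol arrays were close together, and the first vehicle array was brighter than the other two. MYLIP fell by 0.50 ± 0.08 on the log2 scale (adjusted p = 0.00362), to 70.8% of the vehicle level. Without vehicle replicate 1 the log2 fold change was -0.42 and still passed.

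LPCAT3 encodes an acyltransferase that places polyunsaturated fatty acids in membrane phospholipids and is induced by LXRs. Its intensity was 1005, 1053 and 1004 on the menthol arrays, against 1145, 1115 and 1089 on the vehicle arrays. Every menthol array was below every vehicle array, but the gap was 0.05 on the log2 scale. The log2 fold change was -0.13 ± 0.06 and did not pass (adjusted p = 0.143), with a 95% interval of 83.1% to 100.6% of the vehicle level. It passed with a prior that follows intensity (adjusted p = 0.04), and over all its alternatives the adjusted p lay between 0.04 and 0.513.

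APOE and APOC1 encode apolipoproteins that lie side by side in the genome and that LXRs raise together in macrophages. The intensity of APOE was 104.7, 76.4 and 87.3 on the menthol arrays, against 74.2, 76.2 and 76.3 on the vehicle arrays. The vehicle arrays were nearly equal and the menthol arrays were spread, and the lowest menthol array exceeded the highest vehicle array by 0.0008 on the log2 scale. The log2 fold change was 0.23 ± 0.11 and did not pass (adjusted p = 0.157). Without menthol replicate 2 it was 0.34 with an adjusted p of 0.044, and without menthol replicate 1 it was 0.11 with an adjusted p of 0.342, so the value rests on single arrays.

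For APOC1 the intensity was 19.6, 21.0 and 20.0 on the menthol arrays, against 25.8, 19.3 and 20.6 on the vehicle arrays. The groups overlapped, and the first vehicle array stood above the rest. The log2 fold change was -0.11 ± 0.11 (adjusted p = 0.499), and it turned to 0.016 without vehicle replicate 1. APOC1 was in the dimmest 4601 genes, where 1.91% passed as lower and 10.3% as higher.

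**Figure D2:**
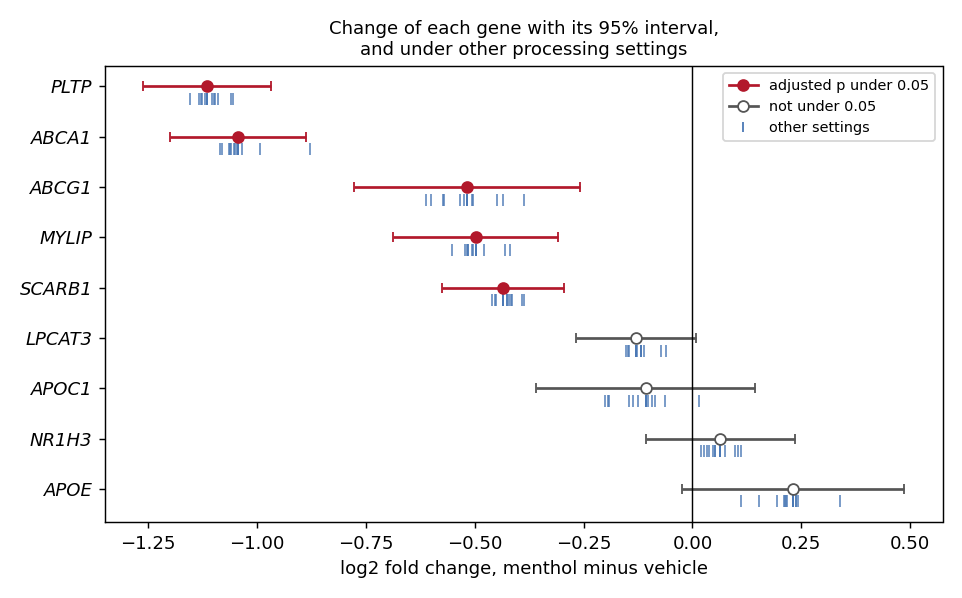
Log2 fold change (x axis, menthol minus vehicle) of each measured gene, as points with 95% intervals from limma, and as blue ticks its value under each other processing setting. The 5 filled points, from -1.11 to -0.43, passed the threshold; the 4 open points did not, and among the blue ticks 1 of APOC1 lies on the other side of 0.

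Across the 9 genes the groups did not overlap in 7, of which 6 were lower and 1 was higher with menthol. Over all genes 45.3% had groups that did not overlap, 21.7% lower and 23.5% higher. An exact two-sided permutation test of 3 against 3 arrays gave 0.10 for each of these 7 genes, which is the smallest p it allows. The labels do not say that replicates were separate cultures, so each p-value here reflects array-to-array spread that may be technical.

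The share of genes that passed as lower grew with brightness, when genes were split by mean intensity into 4 bins of 4601. It was 1.91% in bin 1, the dimmest, 9% in bin 2, 20.2% in bin 3 and 26.9% in bin 4, the brightest. The share that passed as higher was 10.3%, 13.4%, 17.5% and 17.2% in bins 1 to 4. ABCA1 and ABCG1 were in bin 2, MYLIP was in bin 3, and PLTP and SCARB1 were in bin 4. The median log2 fold change was 0.10 in bin 1, 0.06 in bin 2, -0.01 in bin 3 and -0.05 in bin 4. The 5 genes were picked out because they passed as lower, so setting them against these bin medians does not test them.

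**Figure D3:**
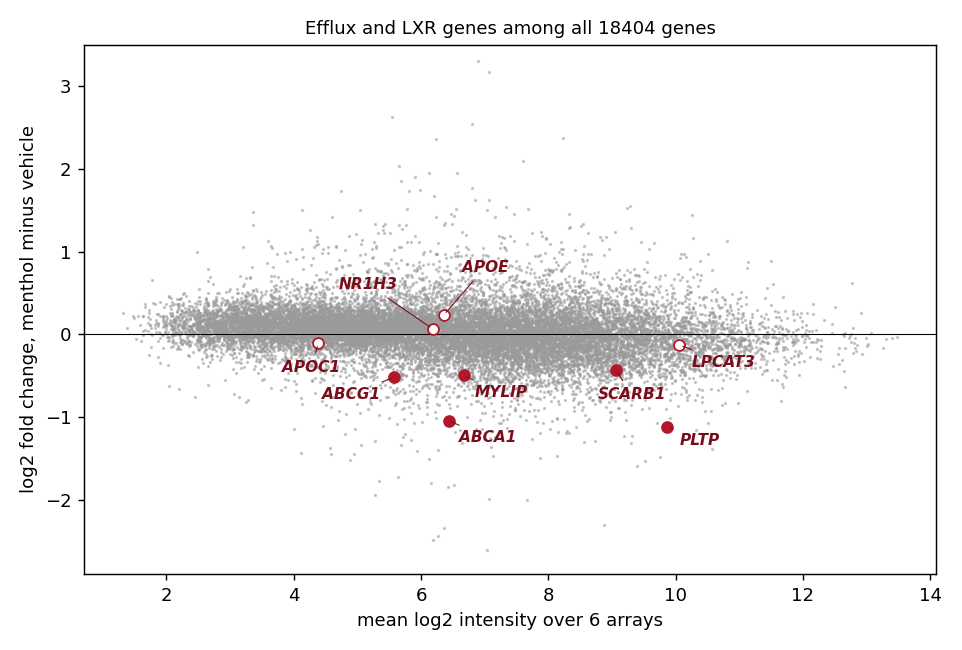
Log2 fold change (y axis, menthol minus vehicle) against mean log2 intensity over the 6 arrays (x axis) for all 18404 genes (grey) and the 9 measured efflux and LXR genes (red; filled where the adjusted p was under 0.05). PLTP and ABCA1, at -1.11 and -1.04, lie at the lower edge of the cloud, while NR1H3, APOE, APOC1 and LPCAT3 lie within it.

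The genes whose pattern over the 6 arrays was nearest to that of ABCA1 were found by Euclidean distance of log2 values, each centred on the gene's mean. Of 18403 genes, the nearest was DDIT4, an inhibitor of mTORC1 induced by stress, at a distance of 0.07. PLIN2, which coats lipid droplets, followed at 0.09 and the collagen chain gene COL4A2 at 0.13. PLTP came 4th at 0.14, and ABTB3 5th at 0.15. These 5 genes had log2 fold changes between -1.11 and -0.99, and the distance mostly reflects a like difference between the groups. Among the other measured efflux and LXR genes, MYLIP had the smallest distance to ABCA1 after PLTP, at 0.70, and ranked 641.

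Of 13 measured partners and coregulators of the receptors 1 rose and 3 fell, with a median log2 fold change of -0.13. By comparison, 14.6% of all genes passed as higher and 14.5% as lower. The RXR genes did not pass, with log2 fold changes of -0.13 ± 0.07 for RXRA (adjusted p = 0.223) and -0.14 ± 0.17 for RXRB (adjusted p = 0.579). RXRB rested on the choice of probeset and array, with -0.27 over the mean of its probesets (adjusted p = 0.0129), -0.34 without menthol replicate 3 (adjusted p = 0.0289) and 0.015 without menthol replicate 2, in a range of adjusted p up to 0.955. The corepressor subunit gene TBL1X fell by 0.57 ± 0.06, its complex partner HDAC3, a histone deacetylase, fell by 0.28 ± 0.07, and the coactivator gene NCOA6 fell by 0.23 ± 0.06. NCOA2, another coactivator, rose by 0.35 ± 0.09. NCOA2 and NCOA6 did not pass without menthol replicate 2 or 3 or vehicle replicate 1 or 2, with values of 0.30 to 0.34 for NCOA2 and -0.24 to -0.19 for NCOA6. NCOA6 also did not pass with quantile or cyclic loess normalization or with the replicate block (adjusted p = 0.0608, 0.0542 and 0.0664). HDAC3 did not pass without vehicle replicate 1 or 3, where it was at -0.27 and -0.28.

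Of 13 other genes reported as LXR targets 2 rose, 3 fell and 8 did not pass, with a median of -0.06. These counts are too small to set apart from the 14.6% higher and 14.5% lower of all genes. SREBF1, which encodes SREBP-1 and is a classical LXR target, had intensities of 87.0, 98.3 and 101.0 on the menthol arrays, against 127.7, 126.9 and 124.3 on the vehicle arrays. It fell by 0.41 ± 0.07 on the log2 scale (adjusted p = 0.00532), and the groups did not overlap. The desaturase SCD fell by 0.83 ± 0.07 and the fatty acid synthase FASN by 0.65 ± 0.06, both of which SREBP-1 also controls. The transglutaminase gene TGM2 rose by 1.16 ± 0.06 and SMPDL3A, a secreted phosphodiesterase, by 0.72 ± 0.10.

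Among genes that make or remove oxysterols 2 of 8 rose and 1 fell, with a median of 0.15. Shares over all genes were 14.6% higher and 14.5% lower. CYP39A1, which hydroxylates 24-hydroxycholesterol, rose by 0.49 ± 0.11, and SULT2B1, a sulfotransferase that inactivates oxysterols as LXR ligands, rose by 0.26 ± 0.08 (adjusted p = 0.0437). CH25H, which makes 25-hydroxycholesterol, fell by 0.26 ± 0.08 with an adjusted p of 0.0496, close to the threshold, and did not pass with menthol replicate 1 or 2 or any vehicle array left out (-0.28 to -0.19), nor with the prior that follows intensity, the replicate block or the pseudocount of 16. SULT2B1 did not pass without menthol replicate 2 or 3 or any vehicle array (0.19 to 0.29), nor with quantile, median or cyclic loess normalization or the replicate block. CH25H, like APOC1, was among the dimmest 4601 genes, at intensities of 14.9 to 17.6 with menthol against 18.8 to 20.7 with vehicle.

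Of 16 genes that store, release and carry cholesterol inside cells 5 rose and 2 fell, with a median of 0.09. Beside these counts, 14.6% of all genes passed as higher and 14.5% as lower. LIPA, the lysosomal lipase that frees cholesterol from its esters, had intensities of 1465, 1520 and 1564 on the menthol arrays, against 771.5, 766.9 and 776.4 on the vehicle arrays. LIPA rose by 0.97 ± 0.06 on the log2 scale, the sterol carrier gene STARD4 by 1.04 ± 0.10, the carboxylesterase gene CES1 by 0.97 ± 0.13 and NCEH1, a cholesteryl ester hydrolase, by 0.73 ± 0.06. NPC1, which exports cholesterol from lysosomes, rose by 0.36 ± 0.07. The 2 that fell were GRAMD1A (-0.31 ± 0.06, adjusted p = 0.00531) and GRAMD1B (-0.27 ± 0.06, adjusted p = 0.0143). SOAT1, which esterifies cholesterol for storage, did not pass (0.15 ± 0.06, adjusted p = 0.129), except when only genes at or above the median brightness were tested (adjusted p = 0.0481).

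In sterol uptake and SREBP control 3 of 10 genes rose and 2 fell, with a median of -0.10. Shares over all genes were 14.6% higher and 14.5% lower. VLDLR, one of the receptors that MYLIP marks for destruction, had intensities of 56.7, 70.8 and 70.5 on the menthol arrays, against 149.7, 145.5 and 144.6 on the vehicle arrays. It fell by 1.16 ± 0.09 on the log2 scale, in the same direction as MYLIP. MYLIP acts on the receptor protein while the arrays measure mRNA, and a link between these decreases was not tested. LRP8, another receptor that MYLIP marks, did not pass (-0.20 ± 0.08, adjusted p = 0.108). It passed with the prior that follows intensity (adjusted p = 0.0249) and among genes at or above the median brightness (adjusted p = 0.0352). INSIG1, which holds SREBP in the endoplasmic reticulum and is itself an SREBP target, rose by 0.71 ± 0.06, and the synthesis genes HMGCS1 and SQLE rose by 0.56 ± 0.10 and 0.41 ± 0.06. SCAP, the other gene of this list that fell, was at -0.37 ± 0.07 (adjusted p = 0.00534). SREBF2, which encodes SREBP-2, did not pass (-0.06 ± 0.08, adjusted p = 0.612).

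**Figure D4:**
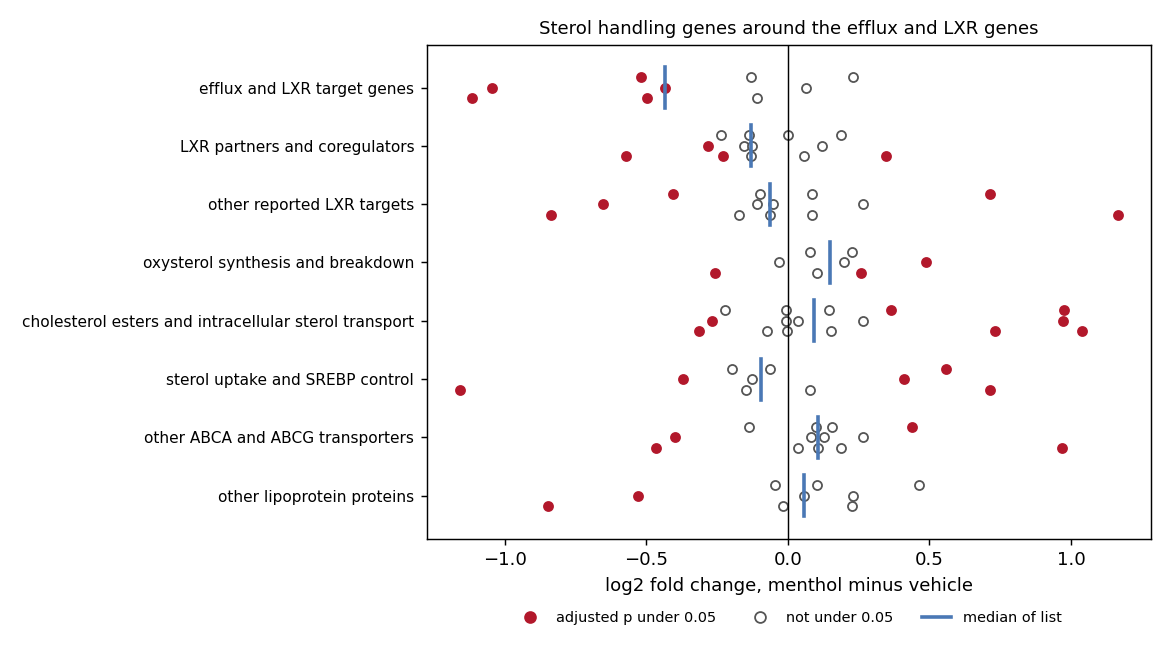
Log2 fold change (x axis, menthol minus vehicle) of the 9 efflux and LXR genes and of 7 further lists of sterol genes (rows); each point is a gene, filled where its adjusted p was under 0.05, and the blue bar is the median. The top row has its median at -0.43 with no filled point above 0, while each of the lists below it, apart from the other lipoprotein proteins, has filled points on both sides.

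Of 13 other ABCA and ABCG genes 2 rose, 2 fell and 9 did not pass, with a median of 0.11; over all genes 14.6% passed as higher and 14.5% as lower, so these shares are near the background. ABCA2, a transporter of late endosomes and lysosomes, fell by 0.47 ± 0.07, and ABCG4, a close relative of ABCG1, fell by 0.40 ± 0.12 (adjusted p = 0.0419). ABCG4 did not pass without menthol replicate 1 or 2 or vehicle replicate 1 or 3, with values of -0.37 to -0.31. ABCA13 rose by 0.97 ± 0.08, with intensities of 98.3, 106.9 and 112.3 on the menthol arrays, against 54.5, 50.2 and 57.7 on the vehicle arrays. ABCA4, the retinoid transporter of photoreceptors, rose by 0.44 ± 0.06 and was among the dimmest 4601 genes.

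The label of the cells was set against marker genes. All 5 epithelial markers (KRT8, KRT18, KRT19, EPCAM and CDH1) were among the brighter genes, and all 5 rose with menthol, with a summed intensity of 10519 to 10856 with menthol and 6213 to 6570 with vehicle. Of 8 macrophage markers 7 lay below the median gene, and 1, the lysosomal gene CD68, rose, though not without vehicle replicate 1 or 2 (0.27 each time). Their summed intensity was 718.5 to 774.1 with menthol and 615.3 to 652.8 with vehicle. Of 6 hepatocyte markers 1, ALB, rose, though not without vehicle replicate 1 or 2 (0.29 and 0.30) or with quantile or cyclic loess normalization, the prior that follows intensity or the pseudocount of 16, and their sum was 176.2 to 194.0 with menthol and 182.6 to 189.6 with vehicle. Of 6 fibroblast markers 2 rose and 1 fell, and their sum was 341.9 to 369.8 with menthol and 393.0 to 414.8 with vehicle. For comparison, 14.6% of all genes passed as higher and 14.5% as lower. The part of these markers in the results on efflux genes was not tested.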

How the data were processed

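Per the labels' protocols, 300 ng of total RNA per sample was labelled for an Affymetrix whole-transcript array, with 6 arrays in all. Intensity values of 32321 probesets stand in the table deposited by the authors, and the submitters' processing notes name RMA. The intensity values ran from 1.57 to 14835 and so were linear, and log2 was taken here. The array medians were 47.4 to 49.1, and the number of arrays limits the precision. Genes were named from the platform annotation where it gave a single symbol, with the brightest probeset kept where a gene had several. The comparison of menthol with vehicle used lmFit and eBayes of limma 3.58.1 (R 4.3.3; two-sided, no covariates, Benjamini-Hochberg adjustment over all 18404 genes). The code was also run on simulated independent noise with few changed genes. That setting is unlike these data, so it checks the code and not the calls made here. Fold changes are menthol minus vehicle. Each of the 3 pairs of arrays with the same replicate number correlated at -0.01 to 0.09 in their deviations from the group means, so the numbers were not used as pairs. Promoters were searched with Python 3.11.15 and numpy 2.4.6, and permutation tests used scipy 1.17.1. The members and the further lists were chosen with earlier results of these data known. The text names all 10 members, of each further list up to 4 genes with the largest change past the threshold, 10 fixed genes where measured, and the 5 genes nearest to ABCA1. GRAMD1A, GRAMD1B and SCAP are named as well, because they fell. Of the 99 places in the 7 further lists 82 were measured, and the others were not analysed here. The alternatives were quantile, median and cyclic loess normalization, removal of dim genes at 2 levels, averaged or single probesets, array weights, a robust prior that follows intensity (statmod 1.5.0), a replicate block, a pseudocount of 16, a threshold of 0.01 and the omission of each array.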

Additional observations from a re-analysis of the deposited data

How the results depend on the processing

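The 5 decreases (PLTP, ABCA1, ABCG1, MYLIP and SCARB1) kept their direction and passed the threshold under every alternative that tested them, except that ABCG1 did not pass a threshold of 0.01 (-0.52, adjusted p = 0.0115). Some alternatives left a member's log2 fold change unchanged by construction. They were averaged or single probesets, the filters, the prior that follows intensity, the replicate block and the threshold of 0.01. In those, only the p-value or the threshold could move. The range over the alternatives was -1.15 to -1.05 for PLTP, -1.08 to -0.88 for ABCA1, -0.61 to -0.39 for ABCG1, -0.55 to -0.42 for MYLIP and -0.46 to -0.39 for SCARB1. The value nearest 0 for ABCA1 and ABCG1 came with the pseudocount of 16, which by construction shrinks the change of dim genes. Keeping only genes at or above the median brightness left 4 of the members to test, of which 3 passed as lower, because ABCA1 and ABCG1 are dimmer than that. Of all 9202 genes kept by that filter, 2857 passed as lower and 2142 as higher. When single arrays were omitted, 0 to 1 members were higher and 5 were lower each time, the 1 being APOE without menthol replicate 2. APOC1, which never passed, ranged from -0.19 to 0.016 on omission of single arrays, and was above 0 only without vehicle replicate 1. With the replicate block, the 5 decreases still passed, ABCG1 with an adjusted p of 0.0111 and ABCA1 with 0.00109. Over all genes the block gave 2483 higher and 2385 lower, against 2683 and 2670. Of 156 values for single members under alternatives, 152 stayed on the same side of the threshold and of 0. That count includes the alternatives that could not change the log2 fold change. Among the further lists, those of sterol uptake and SREBP control and of other lipoprotein proteins kept counts within 1.5 times under all alternatives. Omission of single arrays gave 0 to 1 higher and 1 to 3 lower partners and coregulators, 1 to 2 higher and 0 to 1 lower oxysterol genes, 1 to 2 lower genes of esters and transport, and 2 to 3 higher and 1 to 2 lower ABCA and ABCG transporters. Counts over all 18404 genes moved too, to 1950 to 2402 higher and 1851 to 2472 lower on those omissions. At a threshold of 0.01 there were 0 higher and 1 lower partners, 0 oxysterol genes either way, 1 lower gene of esters and transport and 1 lower transporter. That threshold left 1382 higher and 1459 lower of all genes. With the trended prior there were 5 lower partners and 0 lower oxysterol genes, and of all genes 2965 were higher and 3240 lower. In quantile, median and cyclic loess normalization and with the replicate block 1 oxysterol gene was higher, and with the block or the pseudocount of 16, 0 were lower. Of all genes, these normalizations gave 2453 to 2594 higher and 2634 to 2911 lower. The pseudocount gave 2827 higher and 3103 lower. The filters tested fewer genes: above the median 1 other LXR target was higher, 0 oxysterol genes passed, and 0 transporters were higher and 1 lower, and above the 25th percentile 0 oxysterol genes were lower and 1 transporter higher. On omission of single arrays RXRB ranged from -0.34 to 0.015 and SREBF2 from -0.13 to 0.019. Apart from the fewer genes of the filters, the cause of these changes was not tested. Dim genes such as APOC1 and CH25H limit what small differences could be seen.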

Other observations

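Of 9 further genes of lipoprotein assembly and remodelling, 0 rose in limma (1 at an unadjusted p under 0.05) and 2 fell. LIPG, the endothelial lipase that cleaves phospholipid of high-density lipoprotein, had intensities of 93.6, 73.7 and 81.9 on the menthol arrays, against 145.0, 142.3 and 158.9 on the vehicle arrays, and fell by 0.85 ± 0.10 on the log2 scale (moderated SE, n = 3 per group). CLU, a secreted chaperone that is also known as apolipoprotein J, had intensities of 148.0, 144.7 and 144.1 on the menthol arrays, against 208.7, 209.8 and 212.4 on the vehicle arrays, and fell by 0.53 ± 0.06. The median log2 fold change of the 9 genes was 0.06, against 0.03 over all genes. Over all genes 14.6% passed as higher and 14.5% as lower.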
